A study of Mus musculus with 6 samples.

Results

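The 10 genes described here are Fos, Fosb, Jun, Junb, Jund, Egr1, Egr2, Egr3, Atf3 and Ier2. They were chosen by name, as members of the FOS, JUN and EGR families together with Atf3 and Ier2, and every probe set that the platform annotation assigns to exactly 1 of these symbols was taken. This gave 14 probe sets of the 34945 with a single gene, and 10 of the 18193 genes measured. RNA came from quadriceps muscle of C57/Bl6 mice aged 2 months, 1 Affymetrix array per sample. The knockout group (3 arrays) carried a skeletal α actin cre transgene and floxed Pofut1 alleles, Pofut1flox/flox. The control group (3 arrays) carried the same transgene with wild-type Pofut1, so cre was present in every sample. The skeletal α actin promoter directs cre to muscle fibres, whereas whole muscle also holds vessel, connective tissue, nerve and immune cells. Whether each array came from its own mouse is not given in the labels, and the p-values then measure only the spread between these arrays, which may be technical. In whole tissue, fewer cells of a type and less RNA per cell cannot be told apart. The comparison asked which transcripts differ when muscle lacks Pofut1, a protein O-fucosyltransferase whose best known substrates are the Notch receptors.

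Most of these genes are transcribed quickly and briefly after a stimulus, from promoters read by factors that are already in place, such as SRF with its ternary complex partners, and CREB. FOS proteins pair with JUN proteins through leucine zippers to form AP-1, and JUN proteins can also pair with each other or with ATF3. EGR proteins are zinc finger factors. In skeletal muscle the family is known to respond to contraction, stretch, injury and stress signals.

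The upstream sequences of Jun, Fos and Atf3 are shown because Jun gave the one probe set whose groups did not overlap, while Fos and Atf3, which can pair with it, varied within the groups. RefSeq promoters of build GRCm38.p6 matched 7 of the 10 members, and Egr1, Egr3 and Ier2 had no entry. Each line gives the 250 bases before the annotated start site, 5′ to 3′ on the gene's strand. Capitals mark the searched motifs. Jun lies at chr4:95052223-95052472 (minus strand), Fos at chr12:85473640-85473889 (plus strand) and Atf3 at chr1:191183334-191183583 (minus strand).
Jun: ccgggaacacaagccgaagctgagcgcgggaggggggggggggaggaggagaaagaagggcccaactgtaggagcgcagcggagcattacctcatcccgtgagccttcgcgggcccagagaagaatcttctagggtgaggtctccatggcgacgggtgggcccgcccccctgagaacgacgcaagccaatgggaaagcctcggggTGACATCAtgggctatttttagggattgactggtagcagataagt
Fos: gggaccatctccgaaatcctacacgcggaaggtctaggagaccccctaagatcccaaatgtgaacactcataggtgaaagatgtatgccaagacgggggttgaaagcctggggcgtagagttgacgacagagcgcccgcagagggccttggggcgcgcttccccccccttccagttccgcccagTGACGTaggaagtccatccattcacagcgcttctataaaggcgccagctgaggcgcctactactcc
Atf3: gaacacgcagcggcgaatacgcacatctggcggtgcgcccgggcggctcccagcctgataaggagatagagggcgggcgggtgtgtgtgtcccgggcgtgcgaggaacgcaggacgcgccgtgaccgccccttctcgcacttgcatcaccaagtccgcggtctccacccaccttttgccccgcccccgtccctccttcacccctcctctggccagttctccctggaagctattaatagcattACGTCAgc

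In Jun the capitals mark TGACATCA, 45 to 38 bases before the start site (positions -45 to -38). It is a match to TGACNTCA, a pattern bound by JUN and ATF pairs and held on either strand by 7.49% of all 32851 windows of this length. In Fos they mark TGACGT, the core of a cAMP response element, at -66 to -61. In Atf3 the same core lies on the opposite strand, read as ACGTCA, at -8 to -3. TGACGT was present in 6.47% of windows; this motif and TGACNTCA can overlap. The CArG box, the site of SRF, was present in 1.47% of windows and among the matched members was found upstream of Egr2. Egr2 has 5 annotated start windows, and in that at chr10:67537619-67537868 the site reads CCATATATGG, at -72 to -63. The same window holds the TGACGT core, read as ACGTCA, at -56 to -51. The AP-1 site TGANTCA (6.75% of windows) was not found upstream of these 7 genes. The EGR site GCGNGGGCG (4.7% of windows) was found upstream of Fosb. A match is a description of the letters, and no binding was measured here.

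The array labelled control replicate 3 stood apart, with correlations of 0.940 to 0.945 with the other arrays, which correlated with each other at 0.980 to 0.991. Its Gapdh 3′ over 5′ intensity ratio, a measure of RNA integrity and cDNA length, was 10.5, against 3.70 in knockout replicate 2 and 1.73 to 1.97 in the remaining arrays. Log2 fold changes and list counts are therefore also given without that array, on the remaining 5. Pofut1 itself had a log2 fold change of -0.02 ± 0.52 (SE; limma adjusted p = 0.998) over all arrays, and the array labelled control replicate 3 read lowest of all, against its label. Without it Pofut1 was 1.58-fold lower in the knockout (unadjusted p = 0.0079 in limma). Fibre identity was clear, with all 15 fibre markers, among them Acta1 and Ckm, above background. Background is an intensity of 62.6 throughout, the 95th percentile of 35 genes restricted to other tissues.

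Of the 10 members, 7 were above background in every array by their brightest probe set and 3 were not. Fosb, a FOS family partner of JUN proteins, read 40.2 to 44.9. Junb, a JUN family member, read 44.1 to 47.3. Ier2, a small early-induced nuclear protein, read 46.9 to 59.6. Their probe sets were below background in all 6 arrays, so no fold change is given for them and their genotype comparison is not resolved. The plot of the 14 probe sets by array shows them beneath the dotted background line.

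**Figure D1:**
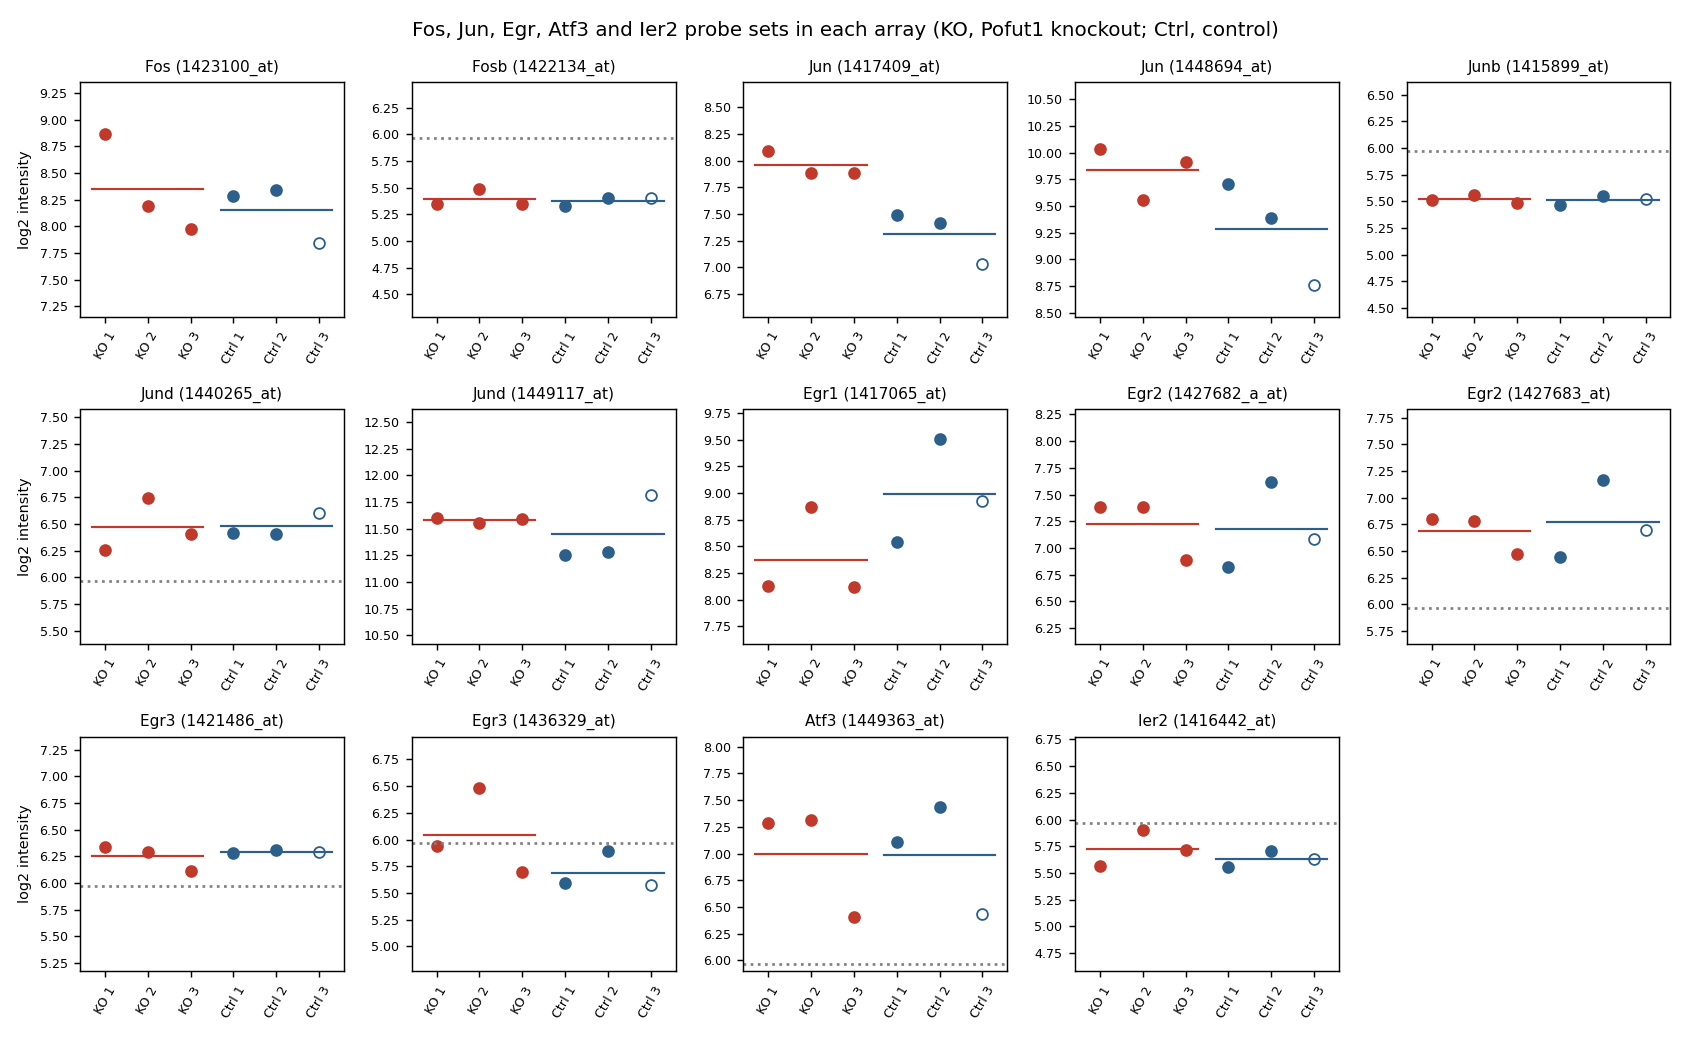
Log2 intensity (y axis) of the 14 probe sets in each of the 3 knockout (KO, red) and 3 control (Ctrl, blue) arrays (x axis); lines are group means, the open circle is the array labelled control replicate 3, and the dotted line is background. The panel of Jun 1417409_at is the one in which the groups do not overlap, and Fosb, Junb and Ier2 lie below background.

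No member passed adjustment over all genes. In limma 0 of 10 members and 0 of 18193 genes passed an adjusted p of 0.05 (0% called). By their brightest probe sets 0 members had an unadjusted p under 0.05, against 468 genes, or 2.57% of all and 3.24% of those above background, and 0 had groups that did not overlap, against 9.01% of all genes and 11.3% of those above background. Over all 45037 probe sets 0 passed as well (0%), while 883 (1.96%) had an unadjusted p under 0.05, among them 1 of the 14 member probe sets. The median log2 fold change of the 7 members above background was 0.05, and that of the 11064 genes above background was 0.02. Without the array labelled control replicate 3 these medians were 0.00 and -0.07. Values were higher in the knockout for 5 of the 7 members, against 52.7% of genes above background, and for 4 of the 7, against 36.5%, without that array. With 3 arrays against 3, an exact permutation test cannot give a p below 0.1.

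Jun, the founding subunit of AP-1, came closest to separating the genotypes. Its probe set 1417409_at read 272.6, 237.1 and 237.1 in the 3 knockout arrays, and 180.1, 170.4 and 131.3 in the 3 arrays labelled control. All knockout values lay above all control values. The groups did not overlap in 1 of the 14 member probe sets, against 7.66% of all probe sets in either direction and 2.93% with the knockout higher. The log2 means were 7.96 ± 0.12 in the knockout and 7.31 ± 0.24 in the control group (SD, n = 3 each). The log2 fold change was 0.64 ± 0.21 (SE; 95% interval 0.14 to 1.14), or 1.56-fold. The unadjusted limma p was 0.018, the adjusted p 0.987 and the exact two-sided permutation p 0.1, the smallest possible. The intensity of 237.1 was the same to every deposited digit in knockout replicates 2 and 3, and such repeats between arrays occurred in 15.7% of probe sets.

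The second Jun probe set, 1448694_at, gave the same direction with overlap. It read 1049.8, 753.6 and 961.5 in the knockout and 838.1, 668.9 and 433.2 in the control arrays. Knockout replicate 2 fell below control replicate 1. The log2 fold change was 0.55 ± 0.27 (SE; 95% interval -0.08 to 1.18), with an unadjusted p of 0.080 and an adjusted p of 0.971 in limma. Both Jun probe sets were lowest in the array labelled control replicate 3. Without it the differences were 0.50 (unadjusted p = 0.014) and 0.29 (unadjusted p = 0.167), so the second value was reduced by more than 1.5 times. Across the 6 arrays the probe sets correlated at r = 0.90, a description over arrays that share group and RNA quality. By the second, brighter probe set Jun ranked 435th of 18193 genes by log2 fold change from the highest.

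Jund, a JUN protein that most cells make without a stimulus, was steady in the knockout arrays and split the controls. Its brightest probe set read 3107.7, 2998.7 and 3091.4 in the knockout. The controls read 2447.1 and 2496.6 in replicates 1 and 2, below every knockout array, and 3597.4 in the array labelled control replicate 3, above all of them. Over all arrays the log2 fold change was 0.13 ± 0.17 (SE; adjusted p = 0.971 in limma). Without control replicate 3 it was 0.31 ± 0.09, or 1.24-fold (unadjusted p = 0.011, adjusted p = 0.802 in limma). Jund was then 1 member of 10 with an unadjusted p under 0.05, against 5.99% of all genes, and the groups did not overlap, as for 24.5% of all genes with these 5 arrays. The other Jund probe set, 1440265_at, read 76.2 to 107.1, overlapped between groups and had a log2 fold change of -0.01 ± 0.21 (SE), and 0.05 without that array. Its r with the brighter probe set over 6 arrays was 0.29.

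Fos, the partner of JUN proteins in AP-1, did not separate the groups. It read 467.8, 292.2 and 252.3 in the knockout and 311.0, 324.2 and 229.1 in the control arrays. Knockout replicate 1 was highest, and the other knockout values lay within the control range. The log2 fold change was 0.19 ± 0.28 (SE; 95% interval -0.48 to 0.86; adjusted p = 0.971 in limma), and 0.04 without the array labelled control replicate 3. Without knockout replicate 1 it was -0.07, so its direction rested on that array.

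Egr1, the most studied EGR factor, had the lowest log2 fold change of the members and ran opposite to Jun. It read 279.6, 469.0 and 278.5 in the 3 knockout arrays, and 372.7, 728.4 and 485.8 in the 3 controls. The groups overlapped, because knockout replicate 2 exceeded control replicate 1. The log2 means were 8.37 ± 0.43 and 8.99 ± 0.49 (SD, n = 3 each). The log2 fold change was -0.62 ± 0.32 (SE; 95% interval -1.37 to 0.14), with the knockout 1.53-fold lower. Limma gave an unadjusted p of 0.095 and an adjusted p of 0.971, and the exact two-sided permutation p was 0.2. Egr1 ranked 281st of 18193 genes from the lowest log2 fold change.

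In both groups Egr1 was highest in replicate 2. These were the 2 arrays with the female-specific transcript Xist, at 1349.2 and 1414.1 against at most 67.6 elsewhere. Without both replicate 2 arrays the log2 fold change was -0.61 (unadjusted p = 0.079 in limma). Without control replicate 2 alone it was -0.36, without knockout replicate 2 alone it was -0.87 (unadjusted p = 0.036, adjusted p = 0.977 in limma), and without the array labelled control replicate 3 it was -0.65.

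Egr2, also called Krox20 and known for its role in Schwann cells, overlapped between the groups. Probe set 1427682_a_at read 167.0, 167.4 and 118.4 in the knockout and 112.7, 196.5 and 135.9 in the control arrays. Control arrays held both the lowest and the highest value. The log2 fold change was 0.05 ± 0.29 (SE; 95% interval -0.64 to 0.73), and that of probe set 1427683_at, which read 87.3 to 143.5, was -0.08 ± 0.25 (SE). These were 0.00 and -0.12 without the array labelled control replicate 3. The probe sets followed each other across arrays (r = 0.96 over 6 arrays). Egr3, an EGR factor required for muscle spindles, was just above background at 69.2 to 80.8 in probe set 1421486_at, with a log2 fold change of -0.05 ± 0.14 (SE), and -0.05 also without that array. Its other probe set, 1436329_at, exceeded background in 1 array, knockout replicate 2, at 89.6, and read 47.6 to 61.5 elsewhere.

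Atf3, a stress-induced ATF factor that can pair with JUN, varied within both groups, which had nearly equal means. It read 155.6, 159.4 and 84.5 in the knockout and 137.8, 172.6 and 86.4 in the control arrays. Replicate 3 of each group was low and the other 4 arrays were higher. The log2 fold change was 0.01 ± 0.37 (SE; 95% interval -0.86 to 0.88; adjusted p = 0.998 in limma). Without the array labelled control replicate 3 it was -0.27 (unadjusted p = 0.432). The within-group SD of Atf3 was 0.51 on the log2 scale, at percentile 83.9 of genes above background, and that of Egr1 was 0.46, at percentile 79.0.

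**Figure D2:**
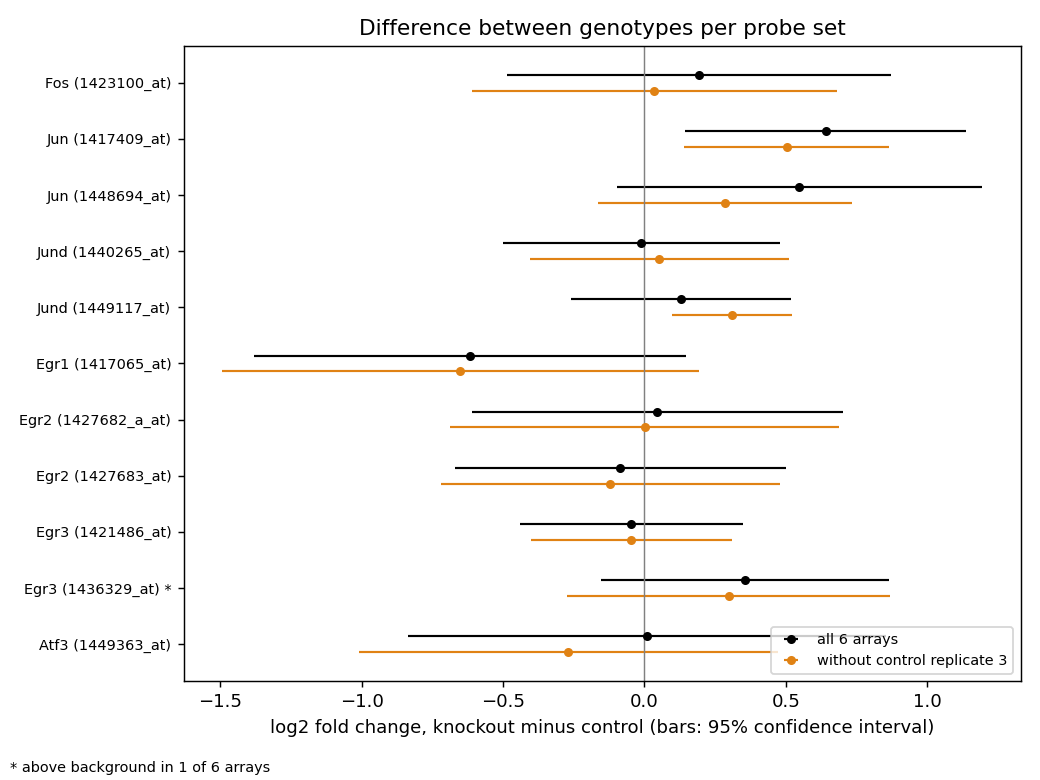
Log2 fold change, knockout minus control (x axis), with 95% confidence intervals from limma for the 11 probe sets above background in at least 1 array (y axis), over all 6 arrays (black) and without the array labelled control replicate 3 (orange). Over all arrays the interval of Jun probe set 1417409_at (0.14 to 1.14) lies above 0, and the others include 0.

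By the brightest probe set of each gene, most of the spread of each member over all 6 arrays lay within the genotypes. The shares and correlations given here leave out the other probe sets, among them Jun 1417409_at, whose groups did not overlap, and Jund 1440265_at. Genotype accounted for 43.3% of the variance of the log2 values over 6 arrays for Jun and 40.3% for Egr1. It accounted for 11.4% for Jund, 10% for Egr3, 8.73% for Fos, 0.62% for Egr2 and 0.012% for Atf3. The median over genes above background was 13.3%. Without the array labelled control replicate 3 the share was 98.3% for Jund, whose arrays within a group lay close together, 37.7% for Egr1, 35.8% for Jun and 12.8% for Atf3, and the median over genes above background was 23.6%. Across the 6 arrays the 21 pairs of the 7 members had r from -0.67 to 0.72, and 11 of them were above 0. The highest was that of Fos and Atf3 and the lowest that of Jun and Egr1. Fos, Egr2, Egr3 and Atf3, grouped after the values were seen, had r of 0.46 to 0.72 in their 6 pairs (0.45 to 0.96 without the array labelled control replicate 3). Egr1 had r of 0.57 with Egr2, 0.44 with Egr3 and 0.36 with Atf3, and -0.24 with Fos. For Jun and Egr1, also singled out after the values were seen, r was -0.97 without that array. These correlations describe arrays that share group, RNA quality and tissue sampling.

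**Figure D3:**
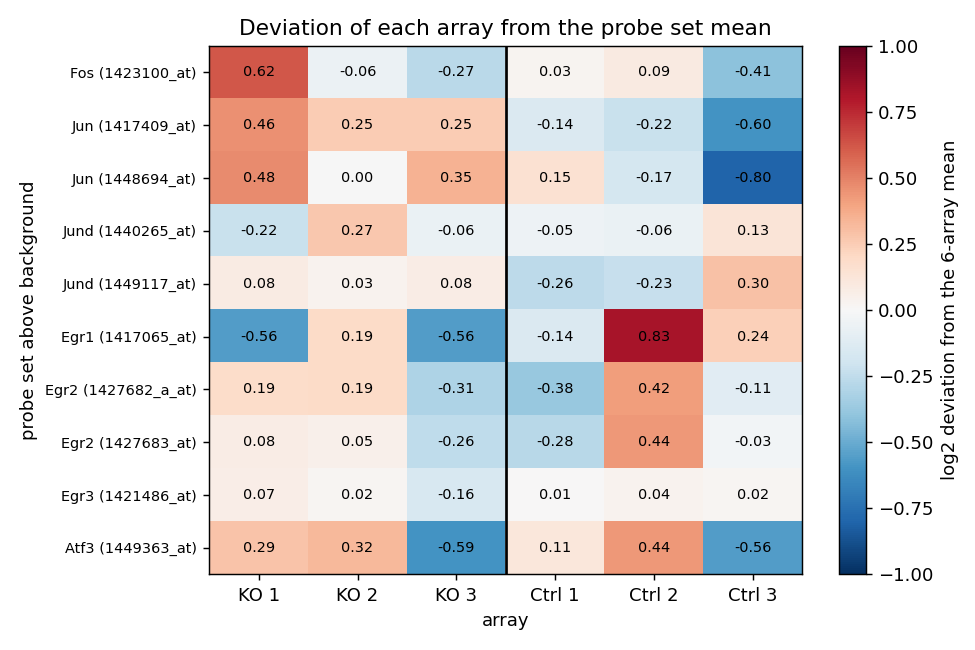
Log2 deviation of each array (x axis, KO knockout, Ctrl control) from the 6-array mean of each of the 10 member probe sets above background (y axis), in colour and in figures. Jun 1417409_at is above its mean in every knockout array and below it in every control array, whereas Atf3 is low in replicate 3 of both groups.

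The genes whose log2 values followed each member most closely over the 6 arrays, among 11063 genes above background, were Cnot6l (r = 0.99) and Entpd2 (0.99) for Jun, Rb1 (0.99) and Heatr6 (0.99) for Fos, and Mfsd4a (0.998) and Arf6 (0.98) for Jund. For Egr1 they were Pnpla7 (0.96) and Cys1 (0.96). For Egr2 they were Ptprg (0.96) and Crim1 (0.96). For Egr3 they were Fgd2 (0.98) and Lrrc3 (0.97), and for Atf3 they were Tsc22d1 (0.99) and Abhd17b (0.99). Leaving out the array labelled control replicate 3, these r were 0.954 to 0.998. With 6 arrays and so many genes, values of this size are the top of a long list and carry no test.

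Related genes were read from 6 lists, and in each of them 0 genes passed adjustment over all genes in limma. The other AP-1, ATF, Maf and EGR genes numbered 17, of which 12 were above background, 10 of these with higher and 2 with lower values (median log2 fold change 0.14), against 52.7% higher among all genes above background. Without the array labelled control replicate 3, 5 of the 12 were higher (median -0.03), against 36.5% of all genes above background. Of the 17, 1 had an unadjusted p under 0.05 and a higher value, against 1% of all genes, and 1 a lower value, against 1.57%. Without that array these counts were 1 and 2, against 2.04% and 3.95%. The first was Fosl2, a FOS family member, which read 850.0, 681.3 and 764.5 in the knockout and 499.0, 645.2 and 501.0 in the control arrays. All its knockout values lay above all control values, as in 3.33% of genes, with a log2 fold change of 0.49 ± 0.17 (SE; unadjusted p = 0.027, adjusted p = 0.971 in limma), and 0.43 without that array. Fosl1, the other, was below background in every array.

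Among 23 kinases and factors that induce the early genes, all above background, 12 had higher and 11 lower values (median 0.00). On the 5 arrays without control replicate 3, 8 of 23 were higher (median -0.08). Mef2d, a MEF2 factor of muscle, had 0.41 ± 0.14 (SE; unadjusted p = 0.023 in limma) without overlap, as in 3.33% of all genes in that direction. Without that array it had 0.42. Map2k2, the ERK kinase MEK2, had -0.30 ± 0.15 (SE; unadjusted p = 0.081 in limma), also without overlap, as in 5.68% of all genes in that direction. Without the array labelled control replicate 3 it had -0.21. Srf, the factor that binds CArG boxes, had -0.44 ± 0.36 (SE), and -0.06 without the array labelled control replicate 3; it was named after its values were seen. Of 23 feedback genes, whose products damp signalling or destroy mRNA, 21 were above background, 14 with higher and 7 with lower values (median 0.22). On the same 5 arrays 11 of 21 were higher (median 0.10). Among all genes above background 52.7% were higher with all arrays and 36.5% on these 5. Of the 23, 3 higher and 2 lower had an unadjusted p under 0.05 in limma, against 2.04% and 3.95% of all genes. With all arrays these counts were 0 and 0, against 1% and 1.57%. Dusp1, a phosphatase of MAP kinases, read 3725.4, 3163.3 and 3027.2 in the knockout and 1657.0, 2948.8 and 2564.9 in the control arrays. Its log2 fold change was 0.50 ± 0.22 (SE; unadjusted p = 0.058), and the antiproliferative gene Btg2 had 0.52 ± 0.24 (SE; unadjusted p = 0.066). Neither overlapped between groups, as in 3.33% of all genes in that direction. Without the array labelled control replicate 3 Dusp1 and Btg2 had 0.57 (unadjusted p = 0.057 in limma) and 0.56 (unadjusted p = 0.047).

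Of 18 other immediate early genes measured, 16 were above background, 12 of them with higher and 4 with lower values, and the median was 0.35, against 52.7% higher and a median of 0.02 among all genes above background. Without the array labelled control replicate 3, 8 of 16 were higher, against 36.5%, and the median was 0.07, against -0.07 for all genes above background with the same 5 arrays. At an unadjusted p under 0.05 limma gave 4 of 18 higher and 0 lower, against 1% and 1.57% of all genes: the nuclear receptors Nr4a1 (1.33 ± 0.28, SE) and Nr4a2 (1.72 ± 0.44), the clock gene Per1 (1.14 ± 0.38) and the Krüppel-like factor Klf2 (0.84 ± 0.25). Without that array 3 were higher and 1 lower, against 2.04% and 3.95% of all genes: Nr4a1 had 1.33, Nr4a2 1.61 and Klf2 0.68, Per1 had 0.94 (unadjusted p = 0.051), and the related receptor Nr4a3 had -1.61 (unadjusted p = 0.0044). Per1, Klf2 and Nr4a3 were named after their values were seen. The list itself was chosen with earlier results of these data known, so its counts cannot test whether early genes changed as a class. Of 21 genes described as targets of AP-1 or EGR factors, 14 were above background, 4 with higher and 10 with lower values (median -0.11). Without that array 3 of 14 were higher, against 36.5% of all genes above background (median -0.26, against -0.07). On these 5 arrays 4 of the 21 had an unadjusted p under 0.05 in limma and a lower value, against 3.95% of all genes. They were Timp1, Hmox1, Ccl2 and Ccnd1, and the first 3 were named after their values were seen. With all arrays the count was 1 of 21, against 1.57%. Ccnd1, cyclin D1, had -0.94 ± 0.34 (SE; unadjusted p = 0.029), with every knockout array below every control array, as in 5.68% of genes, and -1.02 without the array labelled control replicate 3. Sphk1 was below background. Of 16 heat shock and unfolded protein genes 15 were above background, 6 higher and 9 lower (median -0.04). Without that array 9 of 15 were higher (median 0.03). Hspb1, the small heat shock protein HSP27, had -0.52 ± 0.15 (SE; unadjusted p = 0.010 in limma) without overlap, as in 5.68% of genes in that direction. Chac1, induced through ATF4, overlapped and had -0.80 ± 0.36 (SE; unadjusted p = 0.061). Without that array Hspb1 and Chac1 had -0.65 and -1.06.

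**Figure D4:**
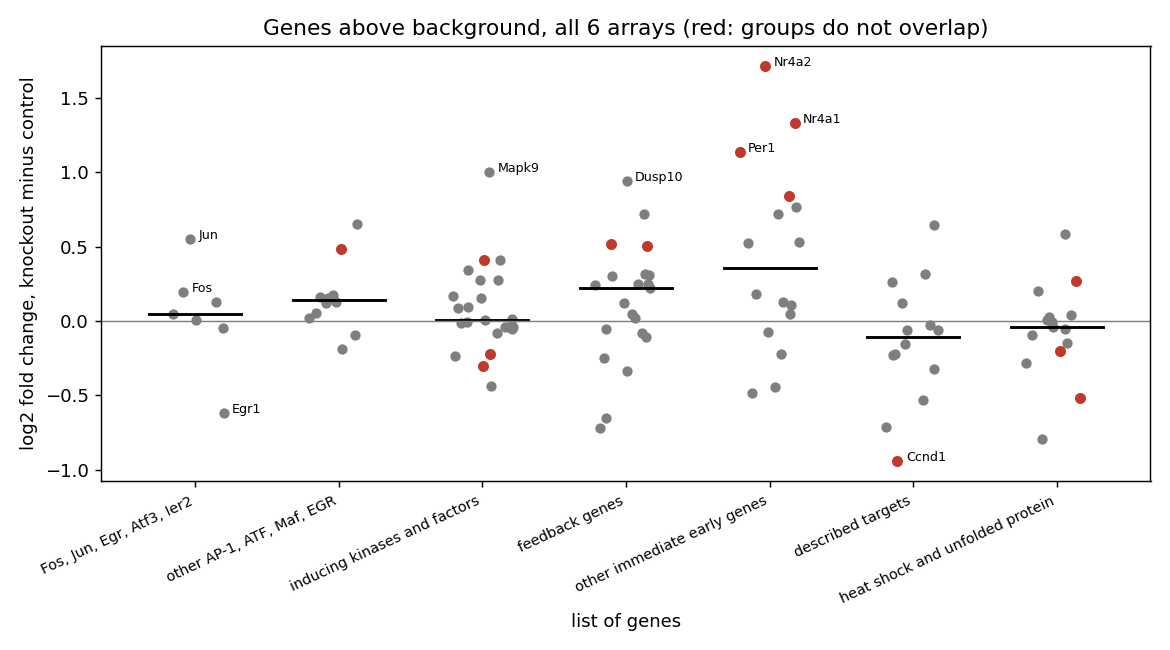
Log2 fold change, knockout minus control (y axis), of the genes above background in the list of members and 6 lists of related genes (x axis) over all 6 arrays; each point is a gene, black lines are medians, and red points are genes whose groups do not overlap. The other immediate early genes, with Nr4a2 and Nr4a1 uppermost, have a median of 0.35, and the members a median of 0.05. Without the array labelled control replicate 3 these medians are 0.07 and 0.00. Members and lists were chosen with earlier results of these data known.

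Markers of other cell types were read beside these values. The summed intensity of the 10 endothelial markers was 2761 to 2889 in the knockout and 2358 to 2614 in the control arrays, with no overlap, in the same direction as Jun, and 7 of the 10 had higher values (8 without the array labelled control replicate 3). That of the 15 fibre markers was 131172 to 138098 and 121706 to 129357, also without overlap, and 13 of the 15 had higher values (11 without that array). Both control ranges were set by the other 2 control arrays. By gene, 1 of the 10 endothelial markers, Cdh5, was higher without overlap. In the other direction 1, Egfl7, was lower without overlap, and it was named after its values were seen. Of the 15 fibre markers 4 were higher without overlap and 0 lower. Over all genes these shares were 3.33% higher and 5.68% lower, and none was computed for sums. For 12 macrophage markers the summed intensity was 7133 to 11852 in the knockout and 8435 to 13831 in the control arrays. Of the 12, 9 were lower and 3 higher (12 of 12 lower without the array labelled control replicate 3). Among all genes above background 52.7% were higher with all arrays and 36.5% without that array. For 10 smooth muscle markers the summed intensity was 7783 to 9232 and 8098 to 9015. Most of that sum was Des, at 2854.8 to 4602.8 over the 6 arrays, and Rgs5, at 1793.6 to 2940.6. It therefore says little about the dimmer smooth muscle markers. For 9 fibroblast markers the summed intensity was 15427 to 22599 and 16268 to 20125, and for 7 adipocyte markers 5305 to 9614 and 5641 to 6953. For 10 satellite cell markers it was 2173 to 2964 and 2257 to 3354. All of these sums, macrophages included, overlapped between the groups. By gene, 2 of the 10 smooth muscle markers, Lmod1 and Myh11, were higher without overlap and 0 lower. Lower without overlap were 2 of the 12 macrophage markers, Folr2 and Fcgr1, and 1 of the 9 fibroblast markers, Thy1. In both of those lists 0 were higher without overlap. The adipocyte and satellite cell markers had 0 in either direction. Values were higher in 6 of 10 smooth muscle, 4 of 9 fibroblast, 7 of 7 adipocyte and 4 of 10 satellite cell markers. Without the array labelled control replicate 3 these counts were 9, 1, 5 and 1. Without that array the controls ranged from 19976 to 20125 for fibroblasts and 6110 to 6953 for adipocytes. For satellite cells they ranged from 3214 to 3354, above every knockout array. The largest term of the satellite cell sum was Sdc4, at 1481.0 and 1346.0 in these controls and 761.5 to 1346.0 in the knockout. By gene, 0 of the 10 satellite cell markers had an unadjusted p under 0.05 in limma on these 5 arrays. The groups did not overlap on these arrays for 24.5% of all genes, a share over single genes and not over sums. Of 9 granulocyte markers 2, S100a8 and S100a9, were above background, and Elane and Mpo read 38.7 to 40.9. S100a9 read 95.1, 72.5 and 68.6 in the knockout and 115.4, 189.2 and 63.7 in the control arrays. S100a8 and S100a9 had log2 fold changes of -0.50 ± 0.40 and -0.52 ± 0.40 (SE). Without the array labelled control replicate 3 these were -0.86 (unadjusted p = 0.043 in limma) and -0.92 (unadjusted p = 0.013). That was 2 of 9 lower, against 3.95% of all genes. The part of endothelial, fibre, smooth muscle and other cell content in the Jun values was not tested.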

How the data were processed

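The authors deposited 1 linear intensity per probe set, made with GCOS and RMA per the submitters' processing notes, versions not given in the sources used here. Whether they were converted back from log2 or rescaled is unknown. RMA compresses fold changes of dim genes. Of 45101 probe sets, the platform annotation names 1 symbol for 34945, several for 932 and none for 9160; the remaining 64 are controls and were not tested. The brightest probe set on average stood for a gene. The log2 of each deposited intensity, with no pseudocount, entered limma 3.58.1 (R 4.3.3). Genotype was the single term over all 6 arrays, and eBayes used an intensity trend. P-values are two-sided, adjusted by Benjamini and Hochberg's method over the 18193 genes (over 45037 probe sets for values of single probe sets of Jun, Jund, Egr2 and Egr3 other than the brightest), at 0.05. The fit was tested on simulated data. The number of arrays limits the precision.

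The members and lists were chosen with earlier results of these data known. Named are all members, Pofut1, the 2 genes of smallest p in each list, and the 2 genes most correlated with each member; other names were chosen after values were seen. Marker genes named in this way were Tnnt3 (log2 fold change 0.19) and Ttn (0.17) for fibres, Cdh5 (0.57) and Vwf (0.38) for endothelium, Lmod1 (0.98) and Myh11 (0.92) for smooth muscle, Folr2 (-0.63) and Fcgr1 (-0.64) for macrophages, Thy1 (-0.61) and Pdgfra (-0.28) for fibroblasts, Pparg (0.57) and Retn (0.35) for adipocytes, and Chrdl2 (-0.81) and Hey1 (-0.74) for satellite cells; Elane and Camp of granulocytes were below background. Each had an adjusted p of 0.971 in limma. Without the array labelled control replicate 3 the log2 fold changes were 0.22 for Tnnt3, 0.18 for Ttn, 0.46 for Cdh5 and 0.43 for Vwf. For Lmod1 and Myh11 they were then 0.94 and 0.39, and for Folr2 and Fcgr1 -0.69 and -0.70. On the same arrays Thy1 and Pdgfra had -0.55 and -0.05, and Pparg and Retn 0.21 and 0.10. Chrdl2 and Hey1 had -0.33 and -0.24. Alternatives covered the replicate block, normalization, array quality, the variance model, dim genes, the choice of probe set and left-out arrays.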

Additional observations from a re-analysis of the deposited data

How the results depend on the processing

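Under all 18 alternatives run, 0 genes and 0 members passed adjustment in limma (lowest adjusted p over genes 0.058 with array weights, where 1854 genes had an unadjusted p under 0.05). Jun and Jund had higher and Egr1 lower values in the knockout in each of the 18, at 0.29 to 0.76, 0.03 to 0.33 and -0.90 to -0.36. Of 10 members 0 had an unadjusted p under 0.05 in the reported fit (2.57% of all genes). They numbered 1, Jun, with quantile normalization (2.75% of all genes), the Gapdh ratio as a covariate (6.43%) or the mean of probe sets (2.52%). They numbered 2 with array weights (Jund and Egr1; 10.2% of all genes) and 3 without both arrays of high Gapdh ratio (Jun, Jund and Egr1; 7.49%). Leaving out 1 array gave 0 to 2: Egr1 without knockout replicate 2, Jun and Egr1 without control replicate 1, and Jund without the array labelled control replicate 3 (276 to 1090 of 18193 genes). With the replicate number as a block 1 member, Egr1, had an unadjusted p of 0.028 (2.07% of all genes were under 0.05) and 0 members passed adjustment. Same-numbered arrays deviated together at r = 0.19, -0.15 and -0.11, so the numbers were not taken as pairs. The median log2 fold change of members was -0.069 to 0.23 with 1 array left out, the highest without control replicate 2. Directions changed for members near 0, and the cause was not tested. Egr2 was -0.019 with the mean of probe sets and -0.082 without both arrays of high Gapdh ratio. Egr3 was 0.15 with the mean and 0.36 with the most variable probe set. Both Egr3 values draw on probe set 1436329_at, which exceeded background in 1 of 6 arrays, so this change of direction is not resolved. Atf3 was -0.26 with array weights, -0.11 with the Gapdh ratio as a covariate and -0.43 without both arrays. With 1 array left out Fos was -0.069 to 0.38, Egr2 -0.13 to 0.27, Egr3 -0.090 to 0.021 and Atf3 -0.27 to 0.31. The Jun probe set without overlap kept log2 fold changes of 0.50 to 0.73 with 1 array left out (unadjusted p = 0.014 to 0.074). Background signal leaves Fosb, Junb and Ier2 unresolved.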

Other observations

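Exact repeats of a value between arrays were present in 7059 of 45037 probe sets (15.7%), and in 3 of the 14 member probe sets, 1 each of Jun, Jund and Egr3. Probe sets of the same gene did not always follow each other across the 6 arrays. The r between the 2 probe sets was 0.90 for Jun and 0.96 for Egr2, but 0.29 for Jund and 0.28 for Egr3, whose dimmer probe sets lay close to or below background. Nr4a3, an early gene related to Nr4a1 and Nr4a2, read 222.7, 548.8 and 298.7 in the knockout and 920.2, 1118.5 and 89.7 in the control arrays, the lowest in the array labelled control replicate 3. Its log2 fold change was -0.45 ± 0.94 (SE; adjusted p = 0.972 in limma) over all arrays and -1.61 without that array (unadjusted p = 0.0044), opposite to those of Nr4a1 and Nr4a2. Nr4a3 was chosen after its values were seen.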
